A study of Mus musculus with 4 samples.

Results

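The 9 genes described here are named in mouse for bone morphogenetic proteins (Bmp1, Bmp2, Bmp3, Bmp4, Bmp5, Bmp6 and Bmp7) or for growth differentiation factors (Gdf5 and Gdf6), and they are 9 of 22359 protein-coding genes of the annotation. A Runx2 ChIP-Seq peak was counted for a gene if it shared at least 1 bp with the gene body or with the 100 kb on either side, and gene body and flanks were kept apart. By this rule the genes held 26 of 25457 day 0 peaks, 83 of 60596 day 9 peaks and 52 of 40330 day 28 peaks. Peaks of the 3 days that shared at least 1 bp were merged, which gave 97 of 67703 regions. The rule used position only, and no peak was counted for more than 1 of the 9 genes.

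The cells were MC3T3-E1 (Subclone 4), a clonal preosteoblast line derived from C57BL/6 mouse calvaria, so each time point is a culture of 1 line and not a tissue. Chromatin was precipitated with the Runx2 antibody M70 from proliferating preosteoblasts (day 0), matrix-depositing osteoblasts (day 9) and mineralizing osteoblasts (day 28). Ascorbic acid and beta-glycerophosphate were the agents that drove differentiation, and input DNA came from matrix-depositing cells. The authors pooled 2 libraries at each day before calling peaks, so each day has 1 list, a difference between days has no replicate error, and no test between days was made. Expression was not measured in these lists, so osteoblast markers could not be read from them. The lists carry no read counts, which leaves the depth behind a single peak unknown.

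Bone morphogenetic proteins are secreted dimers of the transforming growth factor beta superfamily that bind type I and type II serine/threonine kinase receptors and signal through Smad1, Smad5 and Smad9 with Smad4. Several of them, Bmp2, Bmp4, Bmp6 and Bmp7 among them, are known inducers of osteoblast differentiation, and the growth differentiation factors Gdf5 and Gdf6 are known for joint formation. Bmp1 is named with the family but is an astacin metalloprotease that processes procollagen and cleaves the BMP antagonist chordin. Runx2, the runt-domain transcription factor required for osteoblast formation, recognizes the core letters TGTGGT.

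The bases under the peaks are given from the mm9 assembly (NCBIM37), plus strand, before the counts. For each gene, the highest-scoring day 9 peak closest to that gene's own start site is shown by its centre with 50 bases on each side, so that each gene is represented once. At Bmp3, Bmp6 and Bmp7 other day 9 peaks of the window had higher scores but lay closer to another gene's start site. Capitals mark TGTGGT, or ACCACA where the core letters lie on the minus strand. The Bmp5 peak had another gene's start site closer, and the Gdf5 peak overlapped an untranslated exon at the Ergic3 start and is not printed.
Bmp1 intron 6 (chr14:70905487-70905587): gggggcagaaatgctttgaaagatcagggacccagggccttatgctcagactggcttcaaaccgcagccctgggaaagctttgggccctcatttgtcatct
Bmp2 upstream flank (chr2:133307564-133307664): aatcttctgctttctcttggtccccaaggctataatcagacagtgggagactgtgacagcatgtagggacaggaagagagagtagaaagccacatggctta
Bmp3 downstream flank (chr5:99372910-99373010): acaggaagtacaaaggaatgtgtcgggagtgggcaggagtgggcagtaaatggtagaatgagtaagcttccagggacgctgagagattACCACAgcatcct
Bmp4 intron 1 (chr14:47007064-47007164): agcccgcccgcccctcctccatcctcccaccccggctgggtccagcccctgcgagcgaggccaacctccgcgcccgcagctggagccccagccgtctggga
Bmp5 downstream flank (chr9:75771996-75772096): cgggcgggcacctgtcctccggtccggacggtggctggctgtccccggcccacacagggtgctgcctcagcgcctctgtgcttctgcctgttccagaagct
Bmp6 upstream flank (chr13:38371079-38371179): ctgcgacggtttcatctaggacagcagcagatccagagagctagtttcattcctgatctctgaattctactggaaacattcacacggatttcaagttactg
Bmp7 intron 2 (chr2:172731877-172731977): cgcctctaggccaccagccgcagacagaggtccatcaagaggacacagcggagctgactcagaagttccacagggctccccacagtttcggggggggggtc
Gdf6 upstream flank (chr4:9697898-9697998): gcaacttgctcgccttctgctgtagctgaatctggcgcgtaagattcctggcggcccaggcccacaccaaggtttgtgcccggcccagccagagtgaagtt
Of these 8 stretches only the one from the Bmp3 flank held the core letters. The Bmp4 stretch lay in a run rich in G and C, 77.2% of its bases, against 44.6% at the Bmp6 flank.

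The next set shows the bases around the core letters. It holds the 7 day 9 peaks closest to a member's start site with TGTGGT within 50 bp of the peak centre, and the nearest core letters of the highest-scoring Bmp1, Bmp6 and Bmp7 peaks above, which lay further from the centre. The windows were chosen after the values were seen, and both strands were searched with overlapping matches counted.
Bmp1 intron 6 (chr14:70905450-70905490): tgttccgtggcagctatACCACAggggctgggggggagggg
Bmp1 intron 1 (chr14:70915318-70915358): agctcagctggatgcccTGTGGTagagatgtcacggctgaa
Bmp3 downstream flank (chr5:99372981-99373021): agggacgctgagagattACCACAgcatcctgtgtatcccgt
Bmp4 upstream flank (chr14:47032871-47032911): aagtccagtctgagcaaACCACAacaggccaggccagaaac
Bmp6 far upstream flank (chr13:38371276-38371316): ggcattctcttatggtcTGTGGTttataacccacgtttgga
Bmp6 near upstream flank (chr13:38430304-38430344): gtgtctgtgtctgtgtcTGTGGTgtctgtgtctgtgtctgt
Bmp6 intron 2 (chr13:38493117-38493157): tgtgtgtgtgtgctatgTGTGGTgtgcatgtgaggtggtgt
Bmp7 intron 2, peak of all 3 days (chr2:172731830-172731870): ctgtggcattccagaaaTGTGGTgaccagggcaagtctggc
Bmp7 intron 2, peak of days 9 and 28 (chr2:172735097-172735137): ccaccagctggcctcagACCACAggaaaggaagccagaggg
Bmp7 downstream flank (chr2:172623954-172623994): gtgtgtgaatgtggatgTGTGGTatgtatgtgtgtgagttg
Single core letters in unrepeated sequence stood in the Bmp1, Bmp3 and Bmp4 windows, in the far upstream Bmp6 window and in both windows of Bmp7 intron 2. The near upstream window of Bmp6, its intron 2 window and the downstream window of Bmp7 lay in stretches of repeated TG or TGTC letters, and those peaks held 5, 13 and 8 copies.

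Peaks over gene bodies were few at day 0 and were present at the same 5 genes at days 9 and 28. At day 0 only Bmp6 and Bmp7 had a peak over the gene body, 2 of 9 genes, against 48.9% of all protein-coding genes. At day 9 there were 5 of 9, Bmp1, Bmp4, Bmp6, Bmp7 and Gdf6, against 62.5%, and at day 28 the same 5 of 9 against 57.2%. Bmp1, Bmp4 and Gdf6, 3 of 9 genes, had a gene body peak at day 9 and none at day 0, as did 14.8% of all genes. Bmp2, Bmp3, Bmp5 and Gdf5, 4 of 9, had no gene body peak on any day, against 35.4% of all genes. With so few genes, none of these shares is given as a difference from the background.

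With the flanks included, nearly every gene had a peak. There were 8 of 9 genes at day 0 (all but Bmp2), 9 of 9 at day 9 and 7 of 9 at day 28 (all but Bmp3 and Bmp5), against 80.6%, 88.0% and 83.7% of all genes. The counts per gene ran from 0 to 8 at day 0 with a median of 2, from 1 to 25 at day 9 with a median of 6, and from 0 to 11 at day 28 with a median of 6. The medians over all genes were 4, 8 and 6. Of the 26, 83 and 52 peaks, 2, 19 and 12 lay over gene bodies, 11, 40 and 28 in upstream flanks and 13, 24 and 12 in downstream flanks. Most peaks in these windows were therefore outside the genes, but so was most of the window length. The 9 gene bodies span 464868 bp together, and each gene has 100 kb of flank on either side. Only 9 of 26 (34.6%), 32 of 83 (38.6%) and 25 of 52 (48.1%) had one of the 9 genes as the closest start site.

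Per length, the gene bodies gained more than the flanks between day 0 and day 9. Gene bodies held 0.430 peaks per 100 kb at day 0, 4.09 at day 9 and 2.58 at day 28, where all genes held 1.81, 4.00 and 2.77. The gene body rates rest on only 2, 19 and 12 peaks, of which Bmp1 alone held 0, 8 and 4. The flanks held 1.33, 3.56 and 2.22 peaks per 100 kb, against 1.98, 4.63 and 3.01 for all genes.

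**Figure D1:**
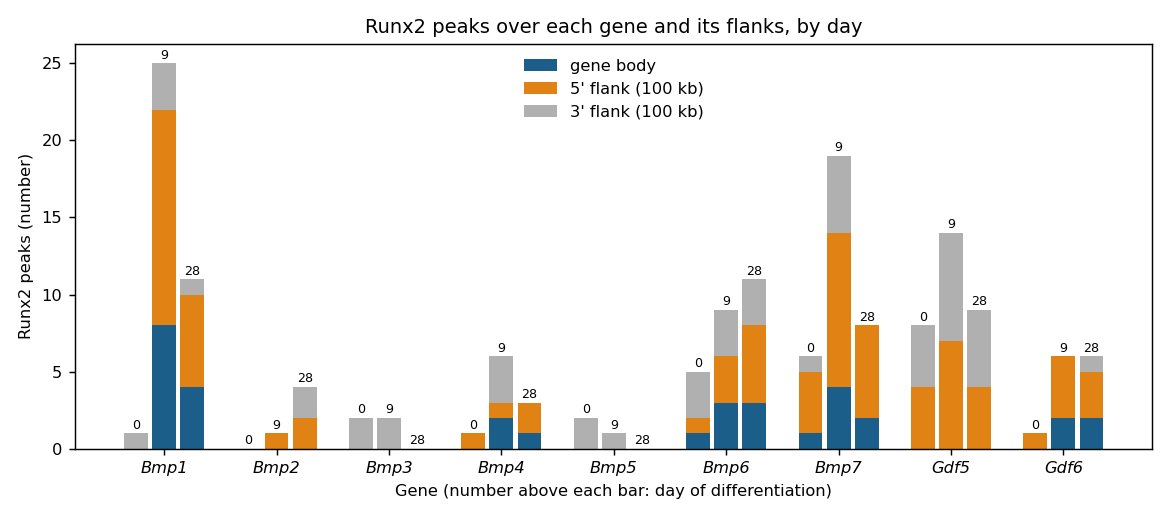
Number of Runx2 peaks (vertical axis) over each gene body and in its upstream and downstream 100 kb, as stacked bars for days 0, 9 and 28 of each gene. Bmp1 had 1, 25 and 11 peaks and Bmp7 had 6, 19 and 8, whereas Bmp2, Bmp3, Bmp5 and Gdf5 had no gene body peak on any day.

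More peaks were called at day 9 than at day 0 for 7 of 9 genes (all but Bmp3 and Bmp5), against 79.6% of all genes. More were called at day 9 than at day 28 for 6 of 9 (Bmp1, Bmp3, Bmp4, Bmp5, Bmp7 and Gdf5), against 72.1%. At day 28, 7 of 9 genes had more peaks than at day 0, against 63.2%, and Bmp2 and Bmp6, 2 of 9, had more than at day 9, against 6.71%. The lists themselves differ in length: the members' total at day 9 was 3.19 times that of day 0 where the whole list was 2.38 times as long. Bmp1 alone held 1 of the 26 day 0 peaks and 25 of the 83 day 9 peaks, so the members' ratio rests largely on that gene. When only the 25457 highest-scoring peaks of each list were kept, the windows held 26, 30 and 33 peaks. At this setting 4 of 9 genes had more peaks at day 9 than at day 0, against 34.8% of all genes, and 3 of 9 had more than at day 28, against 29.8%. The genes with more at day 28 than at day 9 were then Bmp1, Bmp2, Gdf5 and Gdf6, and no longer Bmp6. The share of all genes in that direction was not counted at this setting. Gene body peaks were then found at 2, 5 and 5 of 9 genes on days 0, 9 and 28, against 48.9%, 49.6% and 51.0%.

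The member peaks were spread over the whole range of scores. The MACS score, which is −log10(p) multiplied by 10, depends on depth, so each peak was ranked by its percentile within its own list. The members' peaks had a median percentile of 44.0 (day 0), 38.7 (day 9) and 47.3 (day 28). A percentile under 50 was found for 15 of 26, 49 of 83 and 27 of 52 peaks, that is 57.7%, 59.0% and 51.9%. A percentile of 90 or more was reached by 2, 4 and 5 peaks, or 7.69%, 4.82% and 9.62%, where all peaks of a list hold about 10% by construction. Of those, 1 day 9 peak and 1 day 28 peak had a member as the closest start site, and both lay in Bmp1.

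**Figure D2:**
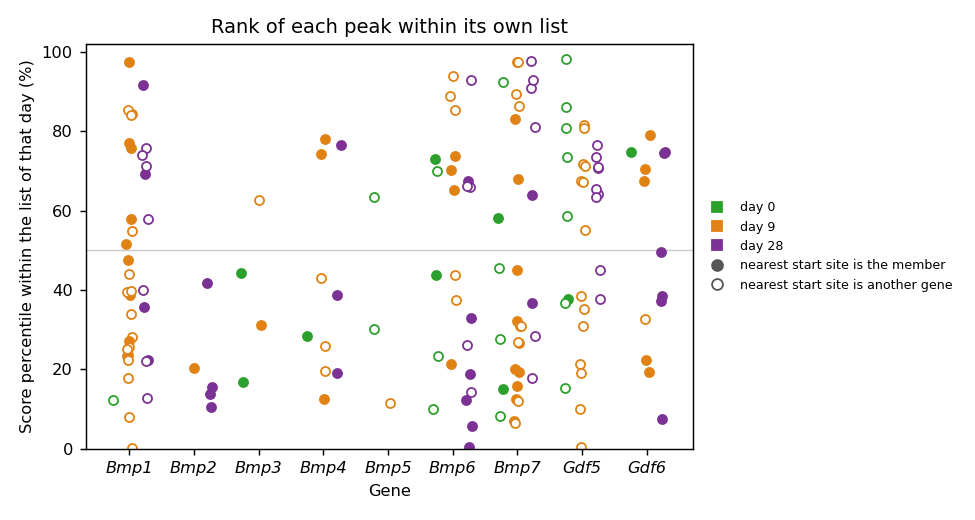
Score percentile of every peak within the list of its own day (vertical axis, %) for each gene. Filled points have the member as the closest start site, open points another gene. The filled points of Bmp1 intron 6 at 97.4 (day 9) and 91.6 (day 28) stand highest, and all 4 Bmp2 points of day 28 lie below 50.

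Bmp1, the procollagen-processing protease, had the most peaks of the 9 genes at day 9. Its gene body (chr14:70874364-70920067, minus strand) held 0, 8 and 4 peaks at days 0, 9 and 28. The upstream flank held 0, 14 and 6, and the downstream flank 1, 3 and 1. At day 9 the total of 25 stood at percentile 89.7 of all genes. The window also holds 10 other protein-coding genes, and peaks came within 1 kb of the starts of Polr3d, Lgi3, Reep4, Nudt18 and Fam160b2. The only day 0 peak, chr14:70842796-70843585 at the Polr3d start, had a score of 124.74 (percentile 12.2). With the highest-scoring 25457 peaks of each list, the Bmp1 counts were 1, 6 and 7.

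The strongest Bmp1 peak lay within intron 6 of its 20-exon transcript, at chr14:70905028-70905993 over days 9 and 28. It had the tied score of 3100 at day 9 (percentile 97.4), a score of 2120.63 at day 28 (percentile 91.6) and no peak at day 0. Its single ACCACA, shown above, lay 67 bp from the day 9 centre and 36 bp from the day 28 centre. The peak in intron 8 was also found on days 9 and 28, with scores of 758.96 (percentile 75.8) and 218.24 (percentile 35.7). In intron 1, the region chr14:70917241-70917832 was bound on days 9 and 28, with scores of 343.81 (percentile 57.9) and 157.03 (percentile 22.5). Of the 2 further intron 1 peaks, both of day 9 alone, chr14:70915127-70915502 had a score of 278.48 (percentile 51.6). Introns 15 and 18 each had a day 9 peak, and that of intron 15, chr14:70887203-70887882, had a score of 151.96 (percentile 27.2). Bmp1 has 3 annotated starts, and the intron 15 centre lay 3725 bp downstream of an internal one. The region centres in introns 6 and 8 lay 14243 and 8233 bp upstream of their closest Bmp1 start.

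Bmp1 and Gdf6 were the only members with a peak within 1 kb of an annotated start site, 0 of 9 at day 0, 2 of 9 at day 9 and 2 of 9 at day 28. The shares over all genes were 43.6%, 53.3% and 51.1%. At Bmp1 the region chr14:70919262-70920632 held 2 adjoining peaks at day 9, with scores of 822.23 (percentile 77.1) and 247.83 (percentile 47.7), and a single peak of 676.16 (percentile 69.2) at day 28. At Gdf6 the region chr4:9771047-9772111 had a score of 131.84 at day 9 (percentile 19.3) and 327.42 at day 28 (percentile 49.6). Both start regions were without a peak at day 0. The sequences just upstream of exon 1 are shown because these are the start sites that held a peak. They are the centre of the upstream day 9 peak of Bmp1 with 50 bases on each side, and the 100 bases before the Gdf6 start.
Bmp1 upstream of exon 1 (chr14:70920324-70920424): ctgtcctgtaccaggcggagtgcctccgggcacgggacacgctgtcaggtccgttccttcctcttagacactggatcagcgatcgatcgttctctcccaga
Gdf6 upstream of exon 1 (chr4:9771419-9771518): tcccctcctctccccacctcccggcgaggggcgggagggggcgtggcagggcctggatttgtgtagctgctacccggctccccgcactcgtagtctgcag
Neither stretch held TGTGGT. The Gdf6 peak had 1 copy elsewhere, 187 bp from its day 9 centre.

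The 4 classical osteoinductive ligands, Bmp2, Bmp4, Bmp6 and Bmp7, differed from each other in where their peaks lay. Bmp2 (chr2:133377895-133388621, plus strand) had no peak over its body on any day and no other protein-coding gene in its window. Its upstream flank held 0, 1 and 2 peaks and its downstream flank 0, 0 and 2 peaks. The region with its day 9 centre 70281 bp upstream was bound on days 9 and 28, with scores of 134.17 (percentile 20.4) and 257.74 (percentile 41.7). The other 3 peaks were called at day 28 alone, with percentiles from 10.6 to 15.6. With equal numbers of top-scoring peaks a single Bmp2 peak was kept, at day 28.

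Bmp4 (chr14:47003195-47010344, minus strand) had a broad gene body region and a distal upstream region, both bound on days 9 and 28. The gene body region, chr14:47005417-47007995, held 2 peaks at day 9, of which the stronger scored 861.46 (percentile 78.0) in intron 1, and 1 peak of 2579 bp at day 28 that scored 926.22 (percentile 76.4). No TGTGGT lay in any of these 3 peaks. The upstream region, chr14:47032671-47033164, had its day 9 centre 22553 bp from the nearest Bmp4 start, with a score of 702.38 (percentile 74.3) against 236.06 (percentile 38.7) at day 28. Its ACCACA lay 6 bp from the day 9 centre. At day 0 Bmp4 had only 1 peak, 46077 bp upstream, with a score of 169.81 (percentile 28.3).

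Bmp6 (chr13:38436995-38592183, plus strand) was 1 of the 2 members with more peaks at day 28 than at day 9. The Bmp6 body held 1, 3 and 3 peaks, its upstream flank 1, 3 and 5 and its downstream flank 3, 3 and 3. At days 0 and 28 a peak lay in intron 2 (chr13:38502100-38502892), with scores of 495.42 (percentile 73.0) and 202.7 (percentile 33.0) and no peak at day 9. This was the only region of the 97 bound on days 0 and 28 without day 9, a pattern of 2.06% of all regions. The strongest gene body peak spanned exon 4 and the intron behind it (chr13:38576508-38577156), with scores of 1347.13 at day 9 (percentile 85.4) and 591.84 at day 28 (percentile 66.0). The region chr13:38370679-38371641, with its day 9 centre 65866 bp upstream, was bound on all 3 days, with percentiles of 43.8, 73.8 and 67.4. The highest scores of the Bmp6 window, 2696.29 at day 9 and 2314.66 at day 28, belonged to the region chr13:38619461-38621020 at the start of Txndc5, which encodes a protein disulfide isomerase. With equal numbers of top-scoring peaks the Bmp6 counts were 5, 6 and 4, so the higher count at day 28 was not kept.

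Bmp7 (chr2:172693513-172765822, minus strand) held the only gene body region of all 9 genes that was bound on all 3 days. It lay in intron 2 at chr2:172731401-172732416 and scored 332.69 at day 0 (percentile 58.2), 1174.44 at day 9 (percentile 83.2) and 545.84 at day 28 (percentile 63.8). Its percentile was highest at day 9. A second peak of intron 2, chr2:172734792-172735523, was bound on days 9 and 28 with percentiles of 68.0 and 36.8, and its ACCACA lay 19 bp from the day 9 centre. Peaks over exon 7 and elsewhere in intron 2 were called at day 9 alone. The upstream flank held 4, 10 and 6 peaks, of which the strongest were at the start of Rae1 (chr2:172824724-172826489), with scores of 1115.27 at day 0 and 3100 at days 9 and 28, and at and near Rbm38. With equal numbers of top-scoring peaks, Bmp7 had 6, 6 and 5 peaks.

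**Figure D3:**
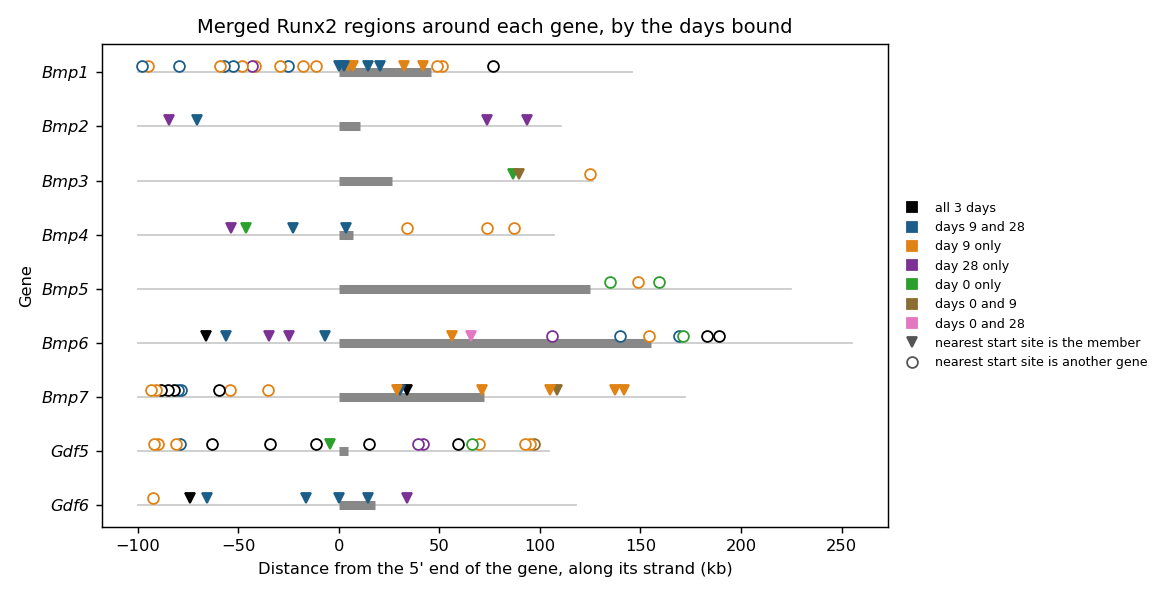
Position of the 97 merged regions along each gene (horizontal axis, kb from the 5' end of the gene along its strand), coloured by the days on which they held a peak. Grey bars are gene bodies and thin lines the 100 kb flanks. Triangles have the member as the closest start site and circles another gene. The Bmp7 body holds the only gene body region of all 3 days, and the Gdf5 body holds none.

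The ligands Bmp3 and Bmp5 had few peaks and none at day 28. Bmp3 (chr5:99283458-99309979, plus strand), a member known to oppose the osteogenic action of other ligands, had 2 downstream peaks at day 0 and 2 at day 9. The region chr5:99372672-99373238 was bound on days 0 and 9, with scores of 237.9 (percentile 44.2) and 164.87 (percentile 31.3). The highest Bmp3 score, 413.01 at day 9 (percentile 62.8), belonged to a peak whose closest start was that of Prkg2. Bmp5 (chr9:75623171-75748117, plus strand) had 2 downstream peaks at day 0 and 1 at day 9, at 3 separate regions. The higher day 0 score was 381.3 (percentile 63.5), and the day 9 score was 117.13 (percentile 11.6). In all 3 cases the closest start was that of Hmgcll1.

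The growth differentiation factors Gdf5 and Gdf6 contrasted in where their peaks lay. Gdf5 (chr2:155766759-155771103, minus strand) had no gene body peak, yet its flanks held 8, 14 and 9 peaks among 6 other protein-coding genes. A single region had the Gdf5 start as the closest, chr2:155774666-155776090, called at day 0 alone 4275 bp upstream with a score of 207.01 (percentile 37.6). The highest Gdf5 score at day 0, 2316.6 (percentile 98.3), belonged to a peak of 2600 bp in the downstream flank at chr2:155710752-155713351. It was matched by 2 narrower peaks at day 9 (percentiles 67.5 and 38.4) and 2 at day 28 (percentiles 64.2 and 65.6). Regions at the starts of Uqcc, Cep250 and Ergic3 were bound on all 3 days. The divergent start of 6430550D23Rik shares the Ergic3 region, chr2:155833354-155834598, which had the highest Gdf5 window scores at day 9 (1057.52, percentile 81.5) and day 28 (931.75, percentile 76.6).

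Gdf6 (chr4:9771519-9789492, plus strand) had 6 of its 7 regions closest to its own start. The region chr4:9696708-9698410, with its day 9 centre 73571 bp upstream, was bound on all 3 days, with scores of 524.01 (percentile 74.8), 920.1 (percentile 79.1) and 854.79 (percentile 74.6). It lay in the upper part of all 3 lists. In intron 1, chr4:9785829-9786639 was bound on days 9 and 28, with scores of 502.67 (percentile 67.4) and 866.42 (percentile 74.9). A region 16118 bp upstream had scores of 584.64 at day 9 (percentile 70.5) and 114.76 at day 28 (percentile 7.55).

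Of the 97 regions, 36 (37.1%, exact binomial 95% interval 27.5 to 47.5) held a peak at day 9 alone, where the share over all 67703 regions was 34.5%. Days 9 and 28 together held 24 (24.7%, interval 16.5 to 34.5, all regions 21.1%). All 3 days held 15 (15.5%, interval 8.92 to 24.2), and the share over all regions was 27.4%. Of the remaining regions, 7 were of day 0 alone (7.22%, all regions 5.60%) and 11 of day 28 alone (11.3%, all regions 7.59%). The last were 3 of days 0 and 9 (3.09%, all regions 1.69%) and 1 of days 0 and 28 (1.03%, all regions 2.06%). Intervals of this kind cover counting error only, and regions of 1 gene are not independent. With equal numbers of top-scoring peaks, 13 of 51 member regions were of all 3 days (25.5%, interval 14.3 to 39.6). The share over all regions was then 37.7%, which lay within that interval.

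Distances to start sites were measured from region centres. Among the 40 regions with a member as the closest start, 38 had their centre over 1 kb from it, 33 over 5 kb and 18 over 50 kb, or 95%, 82.5% and 45%. Over all regions, with the closest start of any protein-coding gene, the shares were 81.8%, 70.3% and 25.5%. Of these 40, 14 were bound on days 9 and 28, 10 at day 9 alone, 7 at day 28 alone and 3 on all 3 days. The rest were 3 of day 0 alone, 2 of days 0 and 9 and 1 of days 0 and 28. In the same order, the shares over all 67703 regions were 21.1%, 34.5%, 7.59%, 27.4%, 5.60%, 1.69% and 2.06%. Among the 20 regions over gene bodies, 9 were bound on days 9 and 28 and 8 at day 9 alone, 1 at day 28 alone, 1 on days 0 and 28 and 1 on all 3 days. Of all 41249 regions over protein-coding gene bodies, 21.1% were bound on days 9 and 28, 32.8% at day 9 alone and 32.6% on all 3 days.

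**Figure D4:**
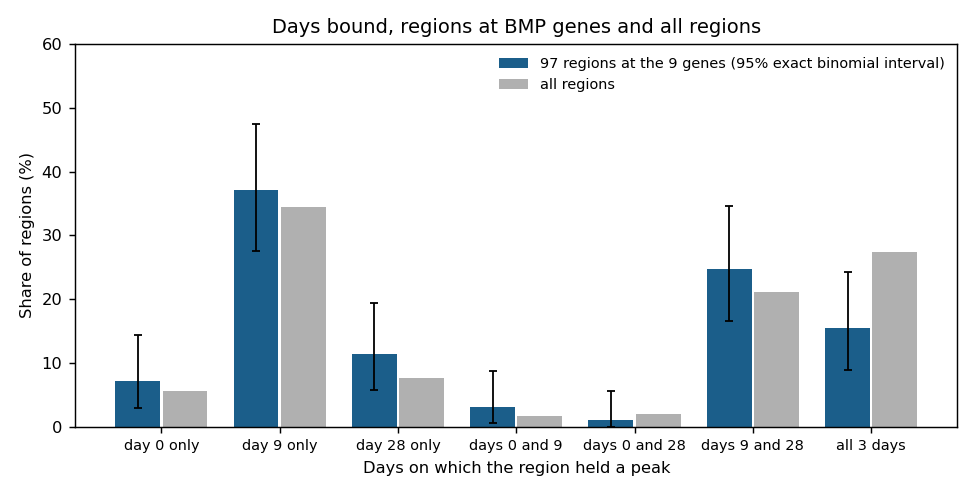
Share of the 97 member regions and of all 67703 regions (vertical axis, %) by the days on which they held a peak. Lines on the member values are exact binomial 95% intervals, which cover counting error only. Regions of all 3 days were 15.5% of the member regions and 27.4% of all regions.

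The core letters TGTGGT lay within 50 bp of the centre in 7 of 26 member peaks at day 0 (26.9%, exact binomial 95% interval 11.6 to 47.8), 17 of 83 at day 9 (20.5%, interval 12.4 to 30.8) and 14 of 52 at day 28 (26.9%, interval 15.6 to 41.0). The shares over all peaks were 15.9%, 25.2% and 20.7%, each within the members' interval. In flanking windows 450 to 550 bp from the centre the members' shares were 7.69%, 7.83% and 5.77%. All peaks had 6.61%, 7.25% and 6.93% there. Anywhere in the peak, the core letters were found in 73.1%, 55.4% and 67.3% of member peaks and in 61.4%, 58.7% and 61.6% of all peaks, a measure that depends on peak width. Peak widths had medians of 797, 529 and 710.5 bp, against 917, 554 and 763 bp over all peaks. A match is a description of letters and not of a binding site.

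**Figure D5:**
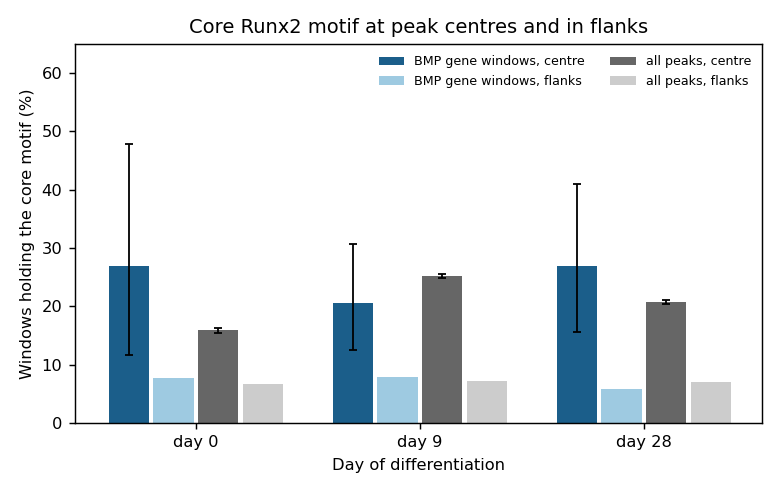
Share of windows holding TGTGGT or ACCACA (vertical axis, %) at peak centres and in flanking windows, for member peaks and for all peaks of each day. Lines on the member values are exact binomial 95% intervals. At peak centres the members stood at 26.9%, 20.5% and 26.9%, above their flanking windows at every day.

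Other ligands of the superfamily and other genes of the BMP pathway were counted in lists of genes. Of 16 other ligands of the superfamily, such as Bmp8a, Gdf11, Inhba and Nodal, 3, 10 and 7 had a gene body peak at days 0, 9 and 28. Of 10 receptors and co-receptors, 6, 9 and 9 had one, and of 13 antagonists, such as Nog, Chrd and Grem1, 6, 10 and 9. All 8 signal transducers and inhibitors, the Smads and Smurfs, had one on each day, and the Id genes and other targets had 5, 6 and 6 of 6. These counts are read against the shares over all genes given above, and no test of the lists was made.

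Peaks near start sites were counted in the same lists, with no test. Over all genes, 43.6%, 53.3% and 51.1% had a peak within 1 kb of a start at days 0, 9 and 28. Such peaks were found for 0, 2 and 2 of the 9 members. The counts were 2, 7 and 5 of 16 other ligands, 6, 7 and 7 of 10 receptors, 6, 9 and 9 of 13 antagonists, 8, 8 and 8 of 8 transducers and 5, 6 and 6 of 6 targets. Bmp2, Bmp3, Bmp4, Bmp5, Bmp6, Bmp7 and Gdf5 had none on any day. Nor had the receptors Bmpr1b and Acvrl1, the co-receptor Hfe2 and the antagonists Chrdl2, Sost, Sostdc1 and Cer1. The same held for the other ligands Bmp8b, Bmp10, Bmp15, Gdf3, Gdf7, Gdf9, Gdf10, Mstn and Nodal. The share of all genes without such a peak on any day was not counted.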

How the data were processed

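Runx2 ChIP-Seq was analysed from 3 peak lists of MC3T3-E1 cells. Per the submitters' processing notes, CASAVA 1.6, Bowtie 0.12.8 and MACS 1.4.1 were used on mm9. The authors pooled 2 libraries per day, retained peaks at a p-value of 1e-10 and deposited 1 list per day. The deposited score is the MACS −log10(p) multiplied by 10. It depends on depth, and many peaks are tied at 3100, so peaks were ranked within their own list. Neither read counts nor summits are given in the lists, so the depth behind a single peak is unknown and the midpoint served as the centre. The paper does give the raw reads of each day, with the most at day 0. Input DNA was not analysed here.

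Genes were taken from GENCODE M1 (Ensembl 65) on NCBIM37, and 0 peaks lay outside its chromosomes. Peaks sharing at least 1 bp were merged into regions. Promoter sequences of another assembly were not used here. All 9 genes were described. Peaks were given with position, as coordinates, distance to the start or flank, for 3 groups. These were the highest score per gene and day, regions within 5 kb of a start, and gene body regions of all 3 days. Other regions were added after their values were seen. Another gene was named where a peak came within 1 kb of its start, or as the closest start. Members and lists were chosen with earlier results of these data known. No test was made, because each day has 1 list. Alternatives covered p-value, flank, overlap, list length, gene assignment and motif window. The position and sequence of 1 peak are not reported here. Procedures were checked on simulated data. Software was pysam 0.24.0 for sequences and Matplotlib 3.10.9, SciPy 1.17.1 and NumPy 2.4.6 under Python 3.11.15.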

Additional observations from a re-analysis of the deposited data

How the results depend on the processing

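Counts in the windows moved with the threshold, the flank, the length of the lists and the assignment of peaks to the closest start. Values are for days 0, 9 and 28 in that order unless named. At a p-value of 1e-20 the windows held 16 peaks at day 0 and 40 at day 9, in 50 regions of which 22% were of day 9 alone. At 1e-50 they held 6, 28 and 24 peaks in 30 regions, 23.3% of day 9 alone and 50% of days 9 and 28, with no member having a gene body peak at day 0 (0 genes) and 0% of 6 day 0 peaks with TGTGGT at the centre (interval up to 45.9%). At 1e-100 they held 2, 14 and 6 peaks in 15 regions, 53.3% of day 9 alone and 6.67% of all 3 days, with gene body peaks at 0, 3 and 1 genes, 4 genes with more peaks at day 9 than at day 0, and 0% of 2 day 0 peaks with the core letters at the centre (interval up to 84.2%). Flanks of 50 kb gave 14, 44 and 29 peaks in 54 regions, and flanks of 200 kb gave 51, 143 and 104 in 173. Equal numbers of top-scoring peaks gave 30 at day 9 and 33 at day 28 in 51 regions, 13.7% of day 9 alone and 25.5% of all 3 days, with 4 genes higher at day 9 than at day 0 and 3 higher than at day 28. Keeping only peaks whose closest start is a member gave 9, 32 and 25 peaks in 40 regions, 25% of day 9 alone, 35% of days 9 and 28 and 7.5% of all 3 days, with 3 genes higher at day 9 than at day 28. Merging on the 100 bp at the centres put 7.69% of regions on all 3 days. The core letters lay within 100 bp of the centre in 48.1% of day 28 member peaks, and anywhere in the peak in 73.1%, 55.4% and 67.3%. The other 110 values of this kind moved by less than their interval or 1.5 times. The peak counts of single genes were less stable: 145 stayed within 1.5 times and 125 moved further.

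No paired analysis was possible because each day has a single list called on pooled libraries. Leaving out a library in turn was not run for the same reason. Depth limits every count: an absent peak says only that none passed the threshold. By the paper's raw reads, day 0 was sequenced deepest although its list is the shortest, and depth was not equalized here. Why the lists differ in length was not tested.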

Other observations

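With wider flanks, Bmp2 still had more peaks at day 28 than at day 9. Within 200 kb it had 2, 2 and 11 peaks at days 0, 9 and 28, and within 500 kb it had 2, 7 and 18, with 0 other protein-coding genes in the window at either width. The highest scores in the 500 kb window were 1338.56 at day 0 (percentile 94.6), 987.32 at day 9 (percentile 80.3) and 1287.72 at day 28 (percentile 83.3). At the same width Bmp4 and its flanks held 10, 37 and 28 peaks among 7 other genes.

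Bmp5 had 10, 20 and 15 peaks within 500 kb, among 12 other genes, and still none over its body. Bmp3 had 3, 9 and 6 within 500 kb. These wider windows were set after the 100 kb counts were seen, and the flanks of 300 kb gave 7, 9 and 7 for Bmp5 and 2, 3 and 11 for Bmp2. Neither counts over all genes nor lists of equal length are given for these widths.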
